A study of Mus musculus with 32 samples.

Results

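The cytosolic and mitochondrial heat shock genes described here are 10 chaperone genes, Hspa1a, Hspa1b, Hspa8, Hsph1, Dnajb1, Hsp90aa1, Hsp90ab1, Hspb1, Hspd1 and Hspe1, taken by symbol from the 54532 genes of the count table. Each symbol matched 1 row, and all 10 were among the 17853 genes with enough counts to be tested. Their proteins keep other proteins folded. HSP70 proteins (Hspa1a, Hspa1b, Hspa8) bind exposed stretches of unfolded chains in cycles driven by ATP, HSP40 and HSP110 proteins (Dnajb1, Hsph1) set the pace of that cycle, HSP90 proteins (Hsp90aa1, Hsp90ab1) take over nearly folded clients, Hspb1 holds unfolded chains without ATP, and Hspd1 with Hspe1 forms the folding chamber of the mitochondrial matrix. Transcription of these genes is driven by heat shock factor 1 (HSF1), which is held inactive by chaperones and, once free, binds repeated GAA units in promoters. In mouse liver HSF1 is known to act in a daily cycle, and heat shock genes are known to follow body temperature and feeding.

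Wild-type mice received for 2 weeks either a high-fat diet free of choline and low in methionine (cdHFD), which is used to produce fatty liver inflammation, or normal chow. Livers were taken every 6 h, at zeitgeber time (ZT, in hours) 2, 8, 14 and 20. Polyadenylated RNA was sequenced in 32 libraries, 4 for each diet and time. Replicates 1 and 2 of a group were male and 3 and 4 female, but for cdHFD ZT14, where replicate 4 was the 1 female. The labels give no age, strain or light schedule, nor do they call each replicate another animal, and p-values then describe the scatter of these libraries, which may be technical. Where livers are counted or listed below, the unit is the library.

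The promoter letters are shown first because the genes are grouped by the factor that reads them. Windows from 250 bases before to 50 bases after the transcription start, from RefSeq on build GRCm38.p6, were held for 7 of the 10 genes, and none was used for Hspa8, Hsp90aa1 and Hsp90ab1. Both strands were searched for pairs of head-to-head or tail-to-tail GAA units, GAANNTTC and TTCNNGAA, and for 3 alternating units, GAANNTTC then NNGAA or TTCNNGAA then NNTTC, whose letters overlap those of the pairs. Of the 27025 genes with windows in the table, 17.0% had either pair and 0.662% had 3 units. Of the 7 genes, 6 had a pair and 3 (Hsph1, Hspd1 and Hspe1) had 3 units, while the windows of Dnajb1 held neither pair. Capitals mark the matched units in stretches read 5′ to 3′ on the gene's strand.

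Hspa1a (minus strand, chr17:34972208-34972307) and Hspa1b (minus strand, chr17:34959290-34959389): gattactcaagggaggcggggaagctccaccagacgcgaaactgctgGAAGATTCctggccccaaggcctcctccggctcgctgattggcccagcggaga
Hspb1 (plus strand, chr5:135887765-135887864): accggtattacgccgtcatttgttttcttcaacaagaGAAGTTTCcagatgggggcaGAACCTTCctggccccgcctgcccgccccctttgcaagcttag
Hsph1 (minus strand, chr5:149636280-149636309): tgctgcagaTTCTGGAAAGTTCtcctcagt
Hspd1 (minus strand, chr1:55088053-55088082): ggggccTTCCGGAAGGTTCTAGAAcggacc
Hspe1 (plus strand, chr1:55088053-55088082): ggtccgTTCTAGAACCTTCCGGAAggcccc

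The stretches of Hspa1a and Hspa1b are the same letter for letter, and their whole windows differed at 4 of 300 positions. The stretches of Hspd1 and Hspe1 are the 2 strands of the same DNA, since these neighbours are transcribed away from each other. The gene counts above are therefore not counts of separate promoters, and with genes grouped by this factor they are no test of it. In Hsph1 the marked units lie after the start, by 15 or 36 bases depending on the window. A match describes letters, and binding was not measured.

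Levels between genes are given as CPM (counts scaled to library size, with TMM factors between libraries) per kb of exon. Hspa8 (chr9:40800984-40810087, plus strand) was highest, at 373 ± 146 in cdHFD livers and 403 ± 157 in chow livers (mean ± SD, n = 16 each, all times together), beside Hsp90ab1 (chr17:45567775-45573271, minus strand) at 345 ± 52.6 and 371 ± 98.4. Hspd1 (chr1:55077835-55088243, minus strand) at 143 ± 29.6 and 161 ± 43.3 CPM per kb came next, with Hspe1 (chr1:55088132-55091307, plus strand) at 122 ± 21.8 and 143 ± 26.7. Within each of these pairs the ranges over all times overlapped, and the genes were not compared library by library. Hspb1 (chr5:135887919-135889563, plus strand) averaged 94.6 ± 26.0 CPM per kb in cdHFD livers and 103 ± 72.6 in chow livers, and Hsp90aa1 (chr12:110690605-110702728, minus strand) 56.4 ± 17.3 and 57.1 ± 27.2. The lower end held Dnajb1 (chr8:83608193-83612653, plus strand) at 11.9 ± 5.25 and 12.4 ± 5.44, Hsph1 (chr5:149614287-149636376, minus strand) at 8.07 ± 4.51 and 9.46 ± 5.51, and Hspa1b (chr17:34956436-34959238, minus strand) at 13.4 ± 12.3 and 8.95 ± 11.6 CPM per kb, whose ranges overlapped. Hspa1a (chr17:34969190-34972156, minus strand) was lowest, at 2.06 ± 1.97 CPM per kb in cdHFD livers and 0.616 ± 0.929 in chow livers.

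Total counts ran from 29.5 to 54.6 M per library, and the smallest count of any heat shock gene in a library was 4 (Hspa1a, in chow). TMM factors were 1.08 to 1.38 in cdHFD libraries and 0.746 to 0.918 in chow libraries. Scaling by total counts alone therefore raised the median diet difference of all genes by 0.56 on the log2 scale and made 88.3% of called genes higher, where TMM gave 5530 higher and 5562 lower, so every diet difference below is relative to the TMM scale. The summed level of 8 hepatocyte markers was 44609 to 76584 CPM in cdHFD livers and 117078 to 190458 CPM in chow livers. That of 8 macrophage and leukocyte markers was 706 to 1163 CPM in cdHFD livers and 97.4 to 414 CPM in chow livers, and no marker of either list was at 0 in any library. In whole liver, fewer cells of a type and less RNA per cell cannot be told apart. Some libraries stood apart from their group. Dbp, a clock output gene, had 76.4 and 191 CPM in cdHFD ZT2 replicates 3 and 4, against 1.75 and 3.44 CPM in replicates 1 and 2 and at most 1.47 CPM in chow livers at ZT2. Arntl, a core clock gene, had 4.41 and 1.25 CPM in cdHFD ZT2 replicates 3 and 4, which are female, against 26.8 and 17.8 CPM in replicates 1 and 2. In cdHFD ZT14 replicate 2, 9 of the 10 heat shock genes were at their group's lowest value, and in replicate 4 of that group 9 were at the highest.

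Under cdHFD the highest group mean of 9 of the 10 genes came at ZT8 or ZT14 and the lowest of the same 9 at ZT20, the exception being Hspb1. In chow the highest mean of each gene came at ZT14 or ZT20 and the lowest at ZT8 or ZT2. In cdHFD 5 of the 10 genes, Hspa1a, Hspa1b, Hspa8, Hsph1 and Dnajb1, differed between times, where 5.43% of all genes did (quasi-likelihood test of edgeR, with p adjusted over all genes tested by Benjamini-Hochberg, the source of every adjusted p unless DESeq2 is named). In chow all 10 did, where 32.1% of all genes did, with 1.47-fold (Hspe1) to 13.5-fold (Hspa1a) between the highest and the lowest group mean. The cdHFD call of Hspa1a was lost in 7 of 32 fits without 1 library, and the chow calls of Hspd1 and Hspe1 in 2 and 4 of them. At ZT8, 7 of the 10 genes were higher in cdHFD livers (20.6% of all genes were called higher), with a median log2 fold change over the 10 genes of 1.13 against -0.01 over all genes. At ZT20, 7 were lower (19.3% of all genes) and Hspa1a was higher (19.8%), with a median of -0.70 against -0.02. Hspa8, Hsp90aa1, Hsph1 and Hspb1 were called higher at ZT8 and lower at ZT20, a pattern held by 35 genes (0.196%) of the table. The diet difference depended on the time (3 df test) for 8 of 10 genes, against 5.77% of all genes, the exceptions being Hspa1a (adjusted p = 0.200) and Hspd1 (adjusted p = 0.120). That count was 5 to 9 with any 1 library left out. It was 5 without any 1 of cdHFD ZT8 replicate 4, cdHFD ZT20 replicates 1, 3 or 4, or chow ZT20 replicates 1, 2 or 4. The 7 genes called higher at ZT8 kept that call without each library in turn and under total counts, whereas at ZT20 under total counts Hsph1 alone of the 7 lower genes stayed called.

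**Figure D1:**
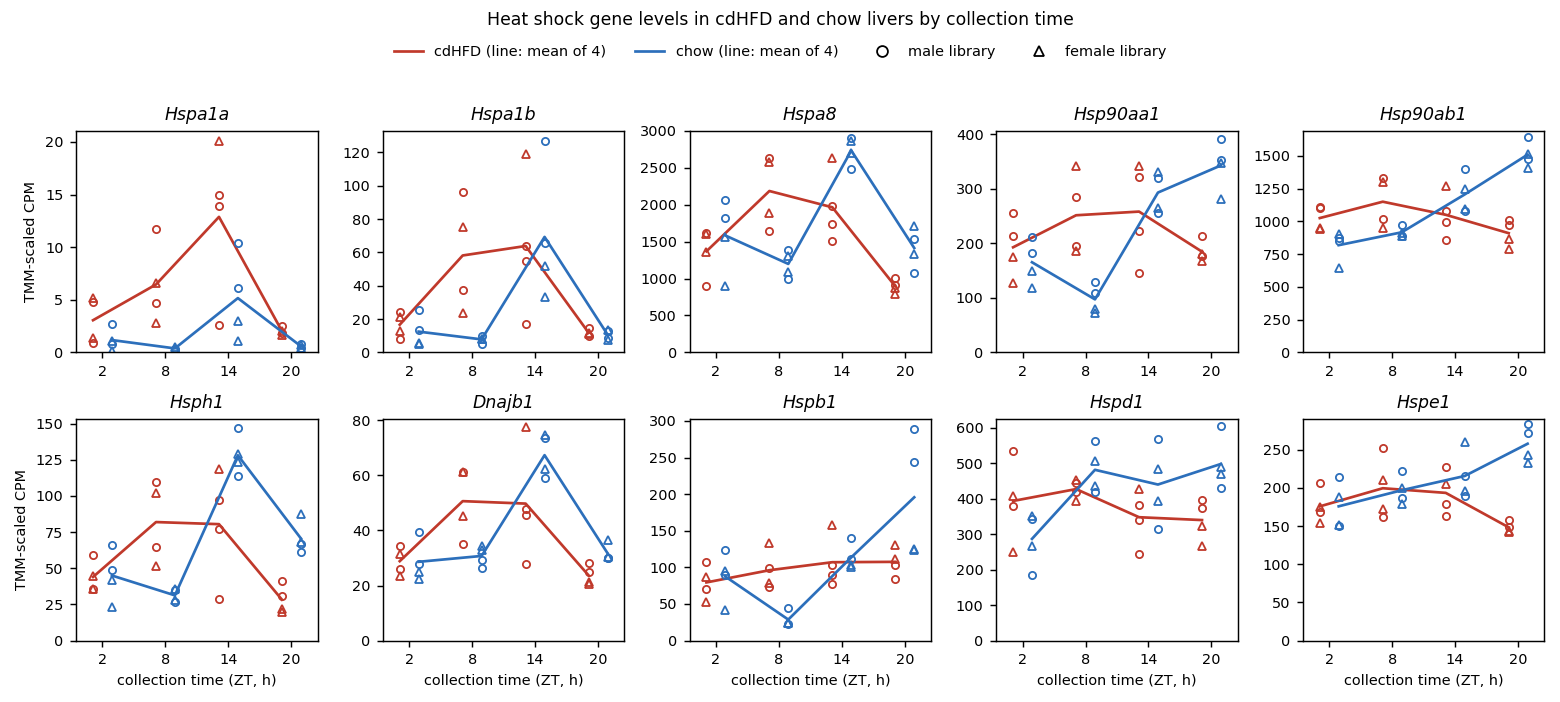
TMM-scaled CPM of the 10 heat shock genes (y axis, from 0, 1 panel per gene) by collection time (x axis, ZT in h), with each library as a point, cdHFD just left and chow just right of its time, and lines through the group means of 4. The cdHFD points of Hsp90aa1, Hsph1 and Hspb1 lie above every chow point at ZT8, and those of Hsp90ab1 and Hspe1 below every chow point at ZT20.

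At ZT2 no heat shock gene was called, where 41.7% of all genes were. By the unadjusted p of edgeR's quasi-likelihood test 3 had p under 0.05, Hspa1a (log2 fold change ± SE 1.47 ± 0.74, adjusted p = 0.0818), Hsp90ab1 (0.32 ± 0.12, adjusted p = 0.0607) and Hspd1 (0.45 ± 0.23, adjusted p = 0.0938). The SE of each fold change is from a linear model of log2 CPM. DESeq2 called 1, Hsp90ab1. Without cdHFD ZT2 replicates 3 and 4, Hspd1 was called higher at ZT2 (0.68). Leaving out single libraries gave 2 calls without chow ZT2 replicate 4 and 1 call without each of cdHFD ZT2 replicates 1 and 4, cdHFD ZT14 replicate 4 and chow ZT2 replicate 2. At ZT14 none was called either, where 35.6% of all genes were, with 3 at an unadjusted p under 0.05 in edgeR's test and 0 called by DESeq2. These were Hspa1a (1.39 ± 0.75, adjusted p = 0.0851), Hspa8 (-0.47 ± 0.23, adjusted p = 0.0946) and Hsph1 (-0.69 ± 0.36, adjusted p = 0.0917). The ZT14 result turned on the 2 cdHFD libraries that stood apart: without replicate 4, 4 genes were called lower, and without replicate 2, Hspa1a was called higher, as it was without chow ZT14 replicate 1.

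**Figure D2:**
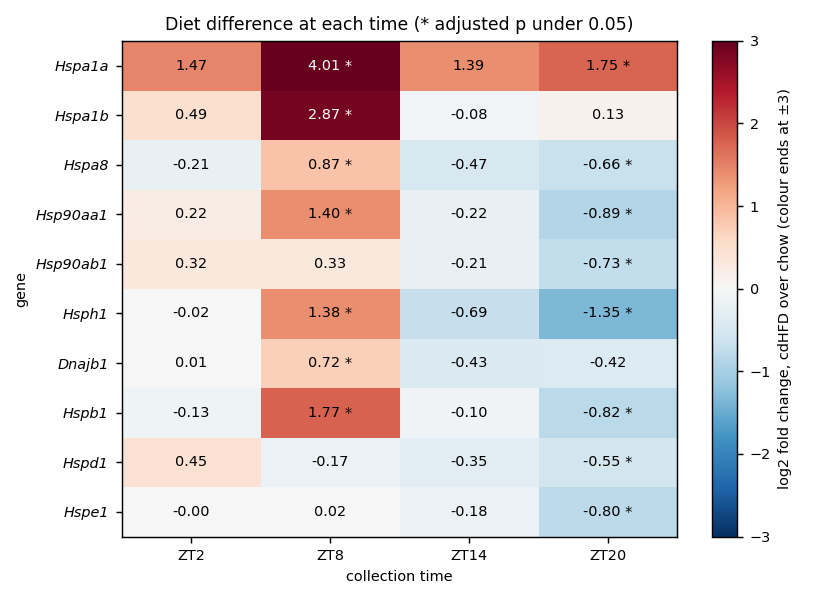
Log2 fold change, cdHFD over chow, of each heat shock gene (rows) at each collection time (columns), as colour and number, with a star where the adjusted p is under 0.05. The ZT8 column holds 7 starred positive values up to 4.01, and the ZT20 column 7 starred negative values down to -1.35 and 1 starred positive value, for Hspa1a.

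Among the HSP70 genes, the stress-inducible pair Hspa1a and Hspa1b showed the largest differences at ZT8 and averaged over the times. They are intronless near-copies: 47.1% of the 100-base stretches of the Hspa1a transcript occur in Hspa1b and 49.9% the other way, and how such shared reads were counted is not given in the sources used here, so the split between them is uncertain. Hspa1a had 4.66, 11.8, 2.83 and 6.56 CPM in cdHFD livers at ZT8, against 0.276, 0.364, 0.552 and 0.337 CPM in chow livers. Every cdHFD library was above every chow library, and the fitted fold was 16.1 (log2 fold change 4.01 ± 0.74, adjusted p = 9.97e-05). Hspa1b had 37.2, 96.1, 23.8 and 75.5 CPM in cdHFD livers at ZT8, against 9.90, 5.27, 7.82 and 8.31 CPM in chow livers. Here too the groups did not overlap, with replicates 2 and 4 the highest of the cdHFD livers, and the fitted fold was 7.31 (2.87 ± 0.56, adjusted p = 0.000198). Of all genes, 20.5% had every cdHFD library above every chow library at ZT8, and 7 of the 10 heat shock genes did.

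At ZT14 both genes reached their highest group mean in both diets. Hspa1a had 13.95, 2.58, 14.9 and 20.1 CPM in cdHFD livers at ZT14, against 10.4, 6.12, 3.003 and 1.12 CPM in chow livers, and Hspa1b had 64.1, 17.1, 54.9 and 119 CPM in cdHFD livers, against 127, 65.4, 51.7 and 33.1 CPM in chow livers. The groups overlapped for both genes, and replicate 2 was the lowest cdHFD library of each. At ZT20 Hspa1a had 1.87, 2.51, 2.05 and 1.67 CPM in cdHFD livers, against 0.775, 0.428, 0.745 and 0.416 CPM in chow livers. These groups did not overlap (22% of all genes had every cdHFD library above every chow library at ZT20) and the difference was called (1.75 ± 0.74, adjusted p = 0.0497), but the call was lost without 21 of the 32 libraries in turn, in the fit without a sex term, with the replicate number as a block (adjusted p = 0.0606), and without cdHFD ZT2 replicates 3 and 4 (adjusted p = 0.0513). Hspa1b at ZT20 had 10.05 to 14.5 CPM in cdHFD livers and 7.65 to 13.3 CPM in chow livers, with overlapping groups and no call (0.13 ± 0.56, adjusted p = 0.869). At ZT2 Hspa1a ranged over 0.927 to 5.21 CPM in cdHFD livers and 0.144 to 2.75 CPM in chow livers, and Hspa1b over 8.13 to 24.4 CPM in cdHFD livers and 5.06 to 25.6 CPM in chow livers.

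Averaged over the 4 times, Hspa1a (2.15 ± 0.37, adjusted p = 4.25e-06) and Hspa1b (0.85 ± 0.28, adjusted p = 0.00715) were the 2 heat shock genes called higher in cdHFD, where 31% of all genes were, and Hspe1 was the 1 called lower, where 31.2% were. With the counts of both copies added, the log2 fold change of the sum was 2.95 at ZT8 and 0.98 on average, both called and both smaller than those of Hspa1a, and at ZT20 it was not called (0.28). The ratio of Hspa1b to Hspa1a counts had a median of 6.22 (3.68 to 11.5) in cdHFD libraries and 17.6 (5.36 to 35.9) in chow libraries. Fitted to a 24 h cosine, Hspa1b peaked at ZT10.6 ± 0.967 h in cdHFD and ZT14.6 ± 0.981 h in chow, with log2 amplitudes of 1.35 ± 0.34 and 1.33 ± 0.34. Its rhythm passed the test in cdHFD (adjusted p = 0.0403) and in chow (adjusted p = 0.00775). The cdHFD call was lost in 12 of 32 fits without 1 library and without cdHFD ZT2 replicates 3 and 4 (adjusted p = 0.0557). The rhythm of Hspa1a passed in neither diet (adjusted p = 0.230 in cdHFD and 0.0789 in chow), though its chow rhythm passed in DESeq2 (adjusted p = 0.0496), without chow ZT2 replicate 2 (adjusted p = 0.0128) and with the copies added (adjusted p = 0.00958), and both passed with no filter on low counts. For neither gene did the difference between the rhythms pass (adjusted p = 0.656 for Hspa1a and 0.292 for Hspa1b). Both did with no filter (adjusted p = 0.0106 for Hspa1a and 3.06e-14 for Hspa1b). In edgeR's fit these differences had the same size with and without the filter (1.03 for Hspa1a and 1.39 for Hspa1b). The no-filter passes thus came from the estimate of the spread and are not read as further support. With the copies added, neither the cdHFD rhythm (adjusted p = 0.0531) nor the diet-by-time test (adjusted p = 0.0548) passed. The diet-by-time call of Hspa1b (adjusted p = 0.0446) was lost in 20 of 32 fits without 1 library, and was not made with the replicate block (adjusted p = 0.0647) or without cdHFD ZT2 replicates 3 and 4 (adjusted p = 0.0620).

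Hspa8 is the HSP70 made in every cell, which also strips clathrin coats and hands proteins to lysosomes. Its mean level was the highest of the 10 genes, and it changed sides between times. It had 1649, 2628, 1886 and 2576 CPM in cdHFD livers at ZT8, against 999.9, 1391, 1093 and 1308 CPM in chow livers. The groups did not overlap, and the level was 1.82-fold higher in cdHFD (0.87 ± 0.23, adjusted p = 0.00211). At ZT20 it had 915, 1006, 870.1 and 784 CPM in cdHFD livers, against 1537, 1078, 1328 and 1709.9 CPM in chow livers. Again the groups did not overlap, now with every cdHFD library below (21.7% of all genes were so placed, and 7 of the 10 heat shock genes), at 0.633-fold (-0.66 ± 0.23, adjusted p = 0.0172). At ZT14 it ranged over 1512 to 2628 CPM in cdHFD livers and 2479 to 2896 CPM in chow livers, and at ZT2 over 903 to 1611 CPM in cdHFD livers and 893 to 2069 CPM in chow livers. Its cdHFD rhythm passed the test (amplitude 0.69 ± 0.15, peak ZT9.51 ± 0.832 h, adjusted p = 0.0149), and its chow cosine did not (0.44 ± 0.15, ZT15.0 ± 1.29 h, adjusted p = 0.0618), although its chow levels differed between times (adjusted p = 0.000609). The chow rhythm passed in DESeq2 (adjusted p = 0.0358), with no filter on low counts (adjusted p = 0.00248) and without any 1 of cdHFD ZT14 replicate 4 (adjusted p = 0.0460), chow ZT2 replicates 1 and 2 and chow ZT20 replicate 2. The difference between the rhythms did not pass in edgeR's test (adjusted p = 0.0801) and did in DESeq2 (adjusted p = 0.0358) and with no filter (adjusted p = 0.000401). It also passed without chow ZT2 replicate 2 or chow ZT20 replicate 2. In edgeR's fit the chow rhythm (0.41) and the difference (0.78) had the same size with and without the filter. The no-filter passes thus came from the estimate of the spread. The diet-by-time test of Hspa8 passed (adjusted p = 0.00829). The ZT20 call was lost without cdHFD ZT20 replicate 4 or chow ZT20 replicate 4, and the cdHFD rhythm without cdHFD ZT8 replicate 2 or cdHFD ZT20 replicate 4. Hspa8 also contains 3 small nucleolar RNA genes on its strand, and whether their reads entered its count was not examined.

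Hsph1, an HSP110 protein that exchanges the nucleotide of HSP70, followed the mean profile of the 10 genes most closely (Pearson's r = 0.925 over 32 libraries, the profile including Hsph1 itself). It had 64.8, 109.7, 51.2 and 102 CPM in cdHFD livers at ZT8, against 34.7, 26.7, 27.8 and 35.7 CPM in chow livers. All cdHFD libraries lay above all chow libraries, at 2.61-fold (1.38 ± 0.36, adjusted p = 0.000946). At ZT20 it had 41.2, 30.8, 21.5 and 19.5 CPM in cdHFD livers, against 61.0, 66.4, 87.3 and 67.8 CPM in chow livers. All cdHFD libraries then lay below all chow libraries, at 0.393-fold (-1.35 ± 0.36, adjusted p = 0.00129), and this was the lower call that total counts alone also gave (-0.77, adjusted p = 0.0366). At ZT14 it had 97.5, 28.6, 76.9 and 119 CPM in cdHFD livers, against 147, 113, 123 and 129 CPM in chow livers, with replicate 2 far below the other cdHFD libraries, and at ZT2 it ranged over 35.9 to 59.1 CPM in cdHFD livers and 22.9 to 66.2 CPM in chow livers. The rhythm of Hsph1 passed the test in both diets. Its peak was at ZT9.61 ± 0.905 h in cdHFD (amplitude 0.84 ± 0.20, adjusted p = 0.0170) and ZT16.4 ± 0.759 h in chow (0.99 ± 0.20, adjusted p = 0.00105). The 2 rhythms differed (adjusted p = 0.0100). The cdHFD rhythm call was lost without any 1 of cdHFD ZT8 replicates 2 and 4 (adjusted p = 0.0537 and 0.0533) and cdHFD ZT20 replicates 3 and 4 (0.0604 and 0.0612).

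Dnajb1, the HSP40 that delivers clients to HSP70 and starts its ATP hydrolysis, was higher in cdHFD at ZT8 and was not called at ZT20. It had 35.0, 61.1, 45.2 and 61.3 CPM in cdHFD livers at ZT8, against 29.3, 26.5, 34.4 and 32.8 CPM in chow livers. The groups did not overlap, and the level was 1.65-fold higher in cdHFD (0.72 ± 0.23, adjusted p = 0.00833). At ZT20 it had 24.8, 28.2, 21.1 and 20.4 CPM in cdHFD livers, against 29.9, 30.2, 36.6 and 30.3 CPM in chow livers. The cdHFD libraries lay below every chow library, but the difference did not pass the test (-0.42 ± 0.23, adjusted p = 0.129), and it was 0.16 under total counts. At ZT14 it ranged over 27.9 to 77.7 CPM in cdHFD livers and 59.0 to 74.6 CPM in chow livers, and at ZT2 over 23.4 to 34.4 CPM in cdHFD livers and 22.45 to 39.3 CPM in chow livers. Its rhythm passed in cdHFD (amplitude 0.65 ± 0.13, peak ZT10.3 ± 0.776 h, adjusted p = 0.00475) and in chow (0.63 ± 0.13, ZT14.1 ± 0.790 h, adjusted p = 0.00111), with no difference between the rhythms past the threshold (adjusted p = 0.112, but 0.0337 without cdHFD ZT14 replicate 4 and 0.0424 without chow ZT2 replicate 2). The diet-by-time call (adjusted p = 0.0414) was lost in 20 of the 32 fits without 1 library.

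The HSP90 genes had no rhythm past the threshold in cdHFD and clear rhythms in chow. Hsp90aa1 encodes the inducible form and Hsp90ab1 the steadily made form of the chaperone that holds steroid receptors and kinases ready for activation. Hsp90aa1 had 194, 284, 186 and 341 CPM in cdHFD livers at ZT8, against 129, 108, 71.8 and 80.4 CPM in chow livers. The lowest cdHFD library was above the highest chow library, and the level was 2.63-fold higher in cdHFD (1.40 ± 0.25, adjusted p = 2.15e-05). At ZT20 it had 214, 177, 168 and 180.1 CPM in cdHFD livers, against 353, 390.4, 347 and 280.4 CPM in chow livers. The order was turned round without overlap, at 0.540-fold (-0.89 ± 0.25, adjusted p = 0.00295). At ZT14 it had 321, 146, 223 and 342 CPM in cdHFD livers, against 319, 256, 266 and 331 CPM in chow livers, and at ZT2 255, 213, 175 and 127 CPM in cdHFD livers, against 212, 182, 149 and 118 CPM in chow livers. The groups overlapped at both of these times. Group means of Hsp90aa1 spanned 1.40-fold over the day in cdHFD and 3.53-fold in chow.

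Hsp90ab1 had 1019, 1329, 952 and 1298 CPM in cdHFD livers at ZT8, against 974, 887, 890.5 and 913 CPM in chow livers. These groups overlapped by 1 cdHFD library, and the difference did not pass in edgeR's test (0.33 ± 0.12, adjusted p = 0.0601) but did in DESeq2 (0.33, adjusted p = 0.0307) and without cdHFD ZT14 replicate 4 (0.34, adjusted p = 0.0364) or cdHFD ZT8 replicate 1 or 3. At ZT20 it had 1011, 975, 788 and 864 CPM in cdHFD livers, against 1476, 1641, 1512 and 1405 CPM in chow livers. The chow libraries at ZT20 were all above every cdHFD library, at a cdHFD to chow ratio of 0.602 (-0.73 ± 0.12, adjusted p = 9.47e-05). At ZT14 it ranged over 855 to 1268 CPM in cdHFD livers and 1083 to 1402 CPM in chow livers. At ZT2 it had 1109, 1101, 941 and 949 CPM in cdHFD livers, against 875, 852, 643 and 903 CPM in chow livers, the 1 heat shock gene whose cdHFD libraries were all above the chow libraries at that time (14% of all genes were). The cdHFD amplitude of Hsp90aa1 was 0.26 ± 0.13 (adjusted p = 0.419), against a chow amplitude of 1.02 ± 0.13 with a peak at ZT18.3 ± 0.473 h (adjusted p = 4.9e-06). That of Hsp90ab1 was 0.16 ± 0.07 in cdHFD (adjusted p = 0.539) and 0.46 ± 0.07 in chow, with a chow peak at ZT17.5 ± 0.580 h (adjusted p = 0.000229). For both genes the rhythm differed between the diets (adjusted p = 0.000762 for Hsp90aa1 and 0.00435 for Hsp90ab1), without each library in turn and under every alternative run.

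Hspb1, the small heat shock protein that holds unfolding chains and binds actin, had no rhythm past the threshold in cdHFD and the largest fitted amplitude of the 10 genes in chow. It had 72.9, 98.7, 78.8 and 134 CPM in cdHFD livers at ZT8, against 22.7, 44.2, 23.9 and 23.8 CPM in chow livers. The groups did not overlap, the level was 3.41-fold higher in cdHFD (1.77 ± 0.33, adjusted p = 3.34e-05), and chow replicate 2 stood above the other chow livers. At ZT20 it had 84.5, 103, 131 and 111 CPM in cdHFD livers, against 289.6, 245, 123 and 126 CPM in chow livers. The difference was called lower (-0.82 ± 0.33, adjusted p = 0.0325), with overlap: the chow males (replicates 1 and 2) were above all other libraries and the chow females lay among the cdHFD livers. The call was lost without any 1 of cdHFD ZT20 replicates 1 and 2 and chow ZT20 replicates 1 and 2. At ZT14 it ranged over 77.7 to 158 CPM in cdHFD livers and 100.3 to 140.3 CPM in chow livers, and at ZT2 over 53.0 to 107 CPM in cdHFD livers and 41.2 to 124 CPM in chow livers. The cdHFD cosine had amplitude 0.21 ± 0.17 (adjusted p = 0.807), and the chow rhythm had amplitude 1.38 ± 0.17 with a peak at ZT19.3 ± 0.469 h (adjusted p = 4.71e-06). The rhythms differed (adjusted p = 0.00435). In cdHFD no heat shock gene was called for sex by edgeR's test or by DESeq2, and 0 had an unadjusted p under 0.05, where 0.941% of all genes were called. In chow Hspb1 was the 1 heat shock gene called for sex, where 9.47% of all genes were called, 3.36% lower in females, so the share of called genes was near that of the table. It averaged 79.5 ± 42.9 CPM in females and 133 ± 92.2 CPM in males (n = 8 each, over all times; log2 difference, female minus male, -0.64 ± 0.20, adjusted p = 0.0201), and this was lost without chow ZT8 replicate 2 or without chow ZT20 replicates 1, 3 or 4. The sex difference of Hspb1 differed between the diets by 0.90 ± 0.28, adjusted p = 0.0648, past the threshold in DESeq2 (adjusted p = 0.0234) and without cdHFD ZT2 replicates 3 and 4 (1.10, adjusted p = 0.0204). It was the 1 gene of the 10 at an unadjusted p under 0.05 there, where 1.85% of all genes were called.

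The mitochondrial chaperonin genes differed between the diets at ZT20 and not at ZT8. Hspd1 encodes the ring that encloses unfolded proteins and Hspe1 its lid. The annotated genes share 112 bases on opposite strands, and the libraries do not mark strand, so reads there cannot be assigned. At ZT8 Hspd1 had 419, 445, 392.3 and 452 CPM in cdHFD livers, against 563, 418, 436 and 507 CPM in chow livers, and Hspe1 had 162, 252, 172 and 211 CPM in cdHFD livers, against 186, 222, 179 and 200.4 CPM in chow livers. The groups overlapped for both genes and neither was called (-0.17 ± 0.23, adjusted p = 0.558 for Hspd1, 0.02 ± 0.14, adjusted p = 0.938, for Hspe1). At ZT20 Hspe1 had 149, 158, 143 and 142 CPM in cdHFD livers, against 272, 283, 233 and 243 CPM in chow livers. The cdHFD livers lay within a narrow band below every chow liver, at 0.576-fold (-0.80 ± 0.14, adjusted p = 6.8e-05). Hspd1 at ZT20 had 396, 373, 265 and 324 CPM in cdHFD livers, against 429, 604, 489 and 469 CPM in chow livers. These groups did not overlap either, at 0.681-fold (-0.55 ± 0.23, adjusted p = 0.0409), a call lost without any 1 of cdHFD ZT20 replicates 2, 3 and 4 and chow ZT20 replicates 2, 3 and 4, and gone under total counts (0.030).

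At ZT14 Hspd1 ranged over 243 to 427 CPM in cdHFD livers and 314 to 567 CPM in chow livers, and Hspe1 over 163 to 228 CPM in cdHFD livers and 189.7 to 259.9 CPM in chow livers. At ZT2 Hspd1 had 535, 379.7, 408 and 250.3 CPM in cdHFD livers, against 343, 184, 267 and 351 CPM in chow livers, with replicate 4 the lowest cdHFD liver. Hspe1 at ZT2 ranged over 153 to 207 CPM in cdHFD livers and 149.8 to 214 CPM in chow livers, an overlap of nearly the whole range. Averaged over the times Hspe1 was lower in cdHFD (-0.24 ± 0.07, adjusted p = 0.00584), and Hspd1 was not called (-0.16 ± 0.11, adjusted p = 0.208). The diet-by-time call of Hspe1 (adjusted p = 0.0323) was lost in 8 of 32 fits without 1 library, all of them fits without a ZT20 library or without cdHFD ZT8 replicate 4. Neither gene had a cosine rhythm past the threshold in cdHFD (adjusted p = 0.766 for Hspd1 and 0.322 for Hspe1) or in chow (0.206 and 0.0634). For Hspe1 the chow rhythm passed in DESeq2 (adjusted p = 0.0324) and under total counts (adjusted p = 0.0134), as did its rhythm difference (adjusted p = 0.0153 and 0.0299), which also passed without any 1 of cdHFD ZT2 replicate 4 (adjusted p = 0.0481), cdHFD ZT8 replicate 1 and chow ZT14 replicate 2. The chow rhythm passed without chow ZT8 replicate 2 or chow ZT14 replicate 2. Without cdHFD ZT2 replicate 4 the diet-by-time test of Hspd1 passed too (adjusted p = 0.0355). Both differed between times in chow (adjusted p = 0.0214 for Hspd1 and 0.0254 for Hspe1), lowest at ZT2 and highest at ZT20. The deviations of the log2 levels of the 2 genes from their group means, with sex fitted, were related over the 32 libraries (Pearson's r = 0.530, Spearman's rho = 0.549, permutation p = 0.00194 and 0.00139; r = 0.544 without the 2 libraries farthest from the median of Hspd1). Within the diets, of 16 libraries each, r was 0.460 in cdHFD (permutation p = 0.0727) and 0.605 in chow (permutation p = 0.0131). In cdHFD rho was 0.544 (permutation p = 0.0311). The chow r fell to 0.361 without its 2 farthest libraries (permutation p = 0.203). By r the relation thus missed a p of 0.05 within cdHFD alone and in chow without those libraries. With so few libraries this does not show that it is absent. For the deviations of Hspa1a with those of Hspa1b, r was 0.834 (rho = 0.750, permutation p = 1e-05 each, the smallest that 100000 permutations give; 0.785 without the 2 farthest libraries), with 0.947 within cdHFD and 0.693 within chow, the chow value falling to 0.479 without its 2 farthest libraries (permutation p = 0.0810). These were the 2 relations tested, with adjusted p of 0.00194 and 2e-05.

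Over the 10 genes, the fitted peaks lay between ZT6.26 (Hspd1) and ZT15.8 (Hspb1) in cdHFD and between ZT14.1 (Dnajb1) and ZT19.3 (Hspb1) in chow. The cdHFD peak was the earlier one for all 10 genes, by 3.38 h for Hspa1a to 9.43 h for Hsp90ab1, where 64% of all genes had the earlier peak in cdHFD, as did 95.7% of the 302 genes with a rhythm in both diets. A peak has little meaning where the cosine did not pass the test, as for 6 of the 10 genes in cdHFD, Hsp90ab1 (adjusted p = 0.539) among them. The cosine was past the threshold in cdHFD for Hspa1b, Hspa8, Hsph1 and Dnajb1 (2.47% of all genes) and in chow for those without Hspa8 and for Hsp90aa1, Hsp90ab1 and Hspb1 (17.7%). DESeq2 called 4 in cdHFD and 9 in chow, adding Hspa1a, Hspa8 and Hspe1 there. The rhythms differed between diets for 4 of 10 genes, against 3.64% of all genes: Hsp90aa1, Hsp90ab1, Hspb1 and Hsph1. The first 3 of these did not pass in cdHFD and passed in chow, and Hsph1 passed in both. DESeq2 called 6 rhythm differences, adding Hspa8 and Hspe1. The cdHFD count fell to 1 without cdHFD ZT8 replicate 2 or cdHFD ZT20 replicate 4, and to 2 without cdHFD ZT8 replicate 4 or cdHFD ZT20 replicate 3. It was 3 without cdHFD ZT2 replicates 3 and 4. Peak times were not fitted without those libraries, whose clock genes stood apart. The 4 genes whose rhythms differed kept that call without each library in turn. With 4 times, a shift and a change of shape cannot be told apart.

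**Figure D3:**
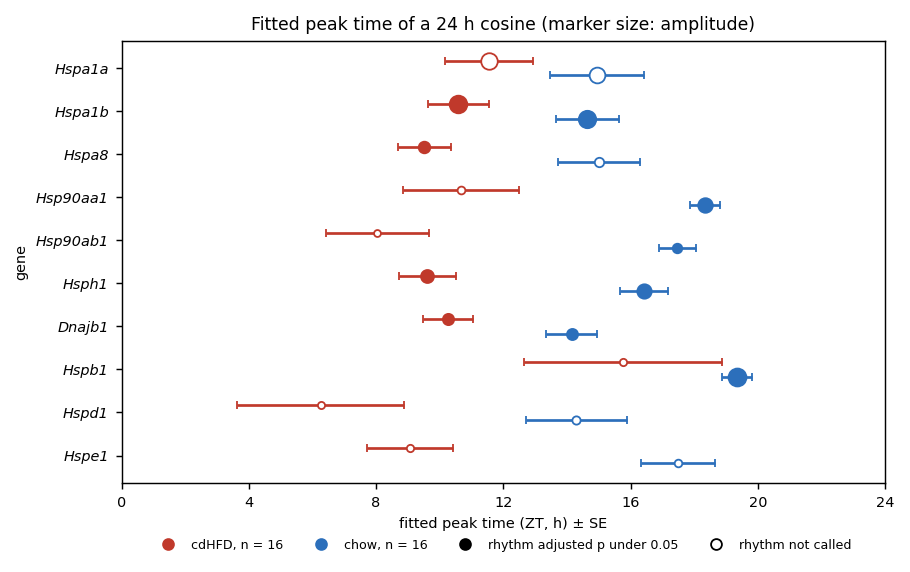
Fitted peak time of a 24 h cosine (x axis, ZT in h, bars ± SE) for each heat shock gene (rows) in cdHFD and chow livers, with marker size for the amplitude and filled markers where the rhythm passed an adjusted p of 0.05. All 10 cdHFD peaks lie left of the chow peak of their gene, by 3.38 to 9.43 h.

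Deviations from the group means, with sex fitted, were also compared between the genes. Of the 45 pairs of the 10 genes, 42 had a correlation above 0 (median r = 0.399, -0.31 to 0.87). The 32 libraries share depth and scaling, and no test was made. No share over all gene pairs stands beside this count, so it is not read as particular to heat shock genes. Among the pairs are Hspa1a with Hspa1b (r = 0.834) and Hspd1 with Hspe1 (0.530), whose reads cannot all be assigned. In the cdHFD ZT8 group, replicates 2 and 4 were the high livers for all 10 genes and replicates 1 and 3 the low ones.

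The genes whose levels followed the mean heat shock profile most closely, outside the 10, were Chordc1 (Pearson's r = 0.879 over 32 libraries), Tmem199 (0.843), Bag3 (0.823), Ahsa1 (0.823), Gde1 (0.822), Cacybp (0.816), Stip1 (0.810), Fmo5 (0.794), Trim65 (0.781) and Dnaja1 (0.778). Chordc1 averaged 52.3 CPM in cdHFD livers and 31.7 CPM in chow livers at ZT8, and 35.5 and 47.8 CPM at ZT20. Fmo5, a flavin monooxygenase, averaged 1196 CPM in cdHFD livers and 533 CPM in chow livers at ZT8 (1.20, adjusted p = 8.78e-06), and 657 and 803 CPM at ZT20 (-0.31, adjusted p = 0.210).

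The partners of these chaperones were read from lists of textbook members. Their counts stand beside the shares of all genes, 20.6% higher and 19.4% lower at ZT8, 19.3% lower at ZT20, and 3.64% with a rhythm difference. Of 13 HSP90 co-chaperones, 3 were higher in cdHFD at ZT8, 5 were lower at ZT20, and the rhythm differed between diets for 6, so the ZT8 share was near that of all genes. Stip1, which links HSP70 to HSP90, shared the calls of Hsp90aa1 at ZT8 and ZT20. It averaged 118 CPM in cdHFD livers and 81.1 CPM in chow livers at ZT8 (0.54 ± 0.13, adjusted p = 0.00299), and 79.3 and 163 CPM at ZT20 (-1.04 ± 0.13, adjusted p = 9.39e-07). Unlike Hsp90aa1, Stip1 was also called at ZT2 (83.2 CPM in cdHFD livers and 110 CPM in chow livers). The cdHFD rhythm of Stip1 passed edgeR's test too (adjusted p = 0.00515), where that of Hsp90aa1 did not. Fkbp4, the immunophilin of steroid receptor complexes, differed at ZT20 alone of these 2 times, with 164 CPM in cdHFD livers and 406 CPM in chow livers (-1.31 ± 0.16, adjusted p = 2.57e-07). Ahsa1, which speeds the HSP90 ATPase, was lower at ZT20 (-0.58 ± 0.13, adjusted p = 0.00145). Of 15 HSP70 co-chaperones, 1 was higher and 2 lower at ZT8, and 6 were lower at ZT20. The 1 higher was Bag3, which couples HSP70 to autophagy (60.03 CPM in cdHFD livers and 36.3 CPM in chow livers, 0.72 ± 0.20, adjusted p = 0.00282), while Bag4 was lower at both times (-1.75 ± 0.23 at ZT8 and -1.05 ± 0.23 at ZT20). Dnaja1, an HSP40, averaged 143 CPM in cdHFD livers and 262 CPM in chow livers at ZT20 (-0.87 ± 0.22, adjusted p = 0.00146), and its rhythm differed between diets (adjusted p = 0.0178). Of 7 other HSP70 and HSP110 genes, Hspa4l alone was called at ZT8 (0.75 ± 0.24, adjusted p = 0.00692).

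The other chaperone classes held no higher call at ZT20. Of the 8 genes of the cytosolic TRiC chaperonin, which folds actin and tubulin, 6 were lower at ZT20, among them Cct7 (-0.55 ± 0.09, adjusted p = 0.00022) and Tcp1 (-0.46 ± 0.09, adjusted p = 0.00181), and 1, Cct3, was higher at ZT8 (0.28 ± 0.09, adjusted p = 0.0453). Of 13 chaperones of the endoplasmic reticulum, which answer mainly to the unfolded protein response, 10 were lower at ZT20, with a median of -0.69, such as Sdf2l1 (37.0 CPM in cdHFD livers and 85.7 CPM in chow livers, -1.21 ± 0.31, adjusted p = 0.00132) and Hyou1 (108 CPM in cdHFD livers and 212 CPM in chow livers, adjusted p = 0.00193). They were not lower at that time alone, with 7 lower calls at ZT2 and 8 at ZT14. At ZT8, 2 were higher and 2 lower, with a median of 0.01, where the median of the heat shock genes was 1.13. Of 9 other mitochondrial chaperones and proteases, 1 was higher and 2 lower at ZT8 and 2 were lower at ZT20, shares near or under those of all genes. The mitochondrial HSP90 Trap1 was lower at both times (-0.64 ± 0.14 and -0.59 ± 0.14) and the protease Lonp1 was higher at ZT8 (0.35 ± 0.13, adjusted p = 0.0498). Of 7 other small heat shock protein genes 5 had enough counts, with Cryab (0.93 ± 0.23, adjusted p = 0.00141) and Hspb2 (1.89 ± 0.48, adjusted p = 0.0046) higher and Hspb6 lower at ZT8 (-0.92 ± 0.17, adjusted p = 7.35e-05).

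**Figure D4:**
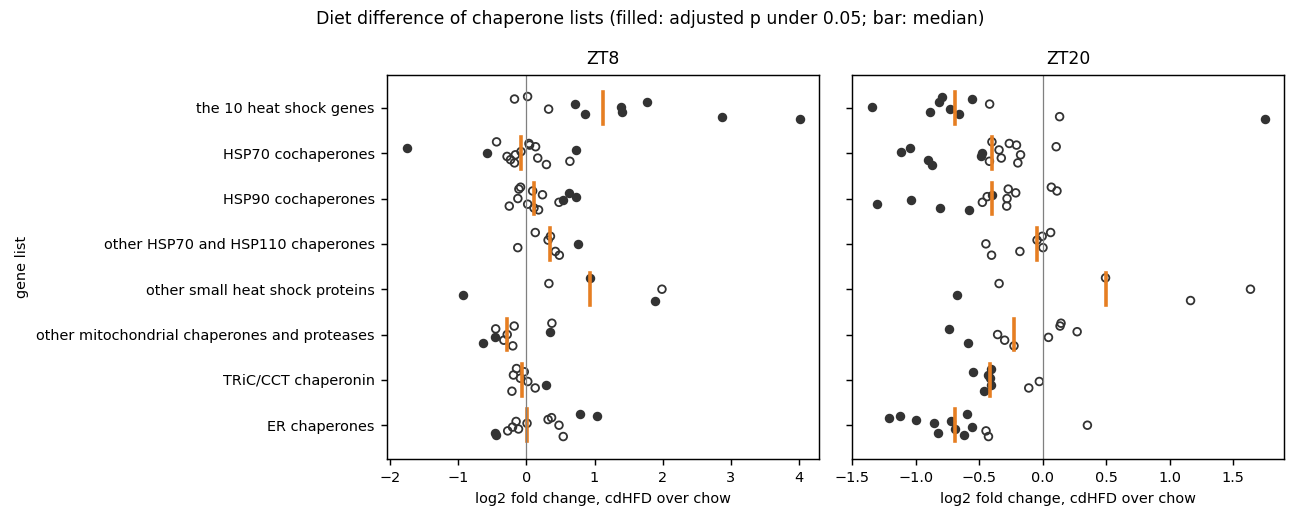
Log2 fold change, cdHFD over chow (x axes), at ZT8 and ZT20 for every tested gene of the heat shock set and of the chaperone lists (rows), as 1 point per gene, filled where the adjusted p is under 0.05, with a bar at the list median. The medians of the 10 heat shock genes are 1.13 at ZT8 and -0.70 at ZT20, and that of the endoplasmic reticulum chaperones is 0.01 at ZT8 and -0.69 at ZT20.

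The transcript of the factor itself was called at neither ZT8 nor ZT20. Hsf1 averaged 29.8 CPM in cdHFD livers and 26.8 CPM in chow livers at ZT8 (0.15 ± 0.18, adjusted p = 0.539), and 30.6 and 30.2 CPM at ZT20 (0.02 ± 0.18, adjusted p = 0.943). It was called at ZT2 alone, lower in cdHFD (-0.56 ± 0.18, adjusted p = 0.0147). HSF1 is controlled mainly at the protein, which RNA counts do not measure. Of the 4 genes in the list of heat shock factors, Hsf2 (-0.25 ± 0.07, adjusted p = 0.00282) and Hsf4 (-0.61 ± 0.14, adjusted p = 0.000193) were lower in cdHFD averaged over the times. Cirbp and Rbm3, RNA-binding proteins induced by mild cold, moved apart: Cirbp averaged 25.5 ± 6.37 CPM in cdHFD livers and 35.2 ± 8.77 CPM in chow livers (SD, n = 16 each; -0.44 ± 0.11, adjusted p = 0.000349), and Rbm3 58.1 ± 13.2 and 33.6 ± 8.15 CPM (0.79 ± 0.08, adjusted p = 2.53e-10). At ZT8 Cirbp was lower (-0.87 ± 0.21) and Rbm3 higher (0.85 ± 0.15).

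Markers of other cell types also differed between the diets. All 8 macrophage and leukocyte markers were higher in cdHFD at ZT8 and at ZT20, with summed levels of 861 to 1069 CPM in cdHFD livers and 97.4 to 321 CPM in chow livers at ZT8, and 1068 to 1163 and 207 to 404 CPM at ZT20. Of 8 immediate early genes, 5 were higher at ZT8 and 7 at ZT20, and of 8 stellate cell and fibroblast markers 7 were higher at both. All 8 hepatocyte markers were lower at both times. The part of these in the heat shock results was not tested.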

How the data were processed

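Per the labels, RNA was taken from mouse liver, and poly-T captured RNA of RIN above 6.5 was made into non-directional paired-end libraries, 32 in all. The values used are raw counts per gene as deposited by the authors. HISAT2, featureCounts, DESeq2 and the builds GRCm38 and mm10 are named per the submitters' processing notes. Their versions were not given in the sources used here, nor was the handling of shared reads. Columns were matched to samples by their names, and 0 columns were left unmatched. Replicates were compared by chi-square over genes in 48 pairs within groups, and no pair agreed within sampling noise (at least 19.0 per degree of freedom), so each library counted as 1 replicate.

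Counts were scaled by TMM and filtered with edgeR's default filter on low counts, which left 17853 of 54532 genes. Quasi-likelihood tests (edgeR 4.0.16, limma 3.58.1, R 4.3.3; robust estimates) were fitted to all libraries with 8 groups of diet and time plus sex, with a 24 h cosine within each diet plus sex, and with groups plus sex within each diet. P-values were adjusted by Benjamini-Hochberg over all tested genes, with a threshold of 0.05. Log2 fold changes come from the edgeR fits. SEs, amplitudes and peak times come from linear models of log2 CPM, which was computed with a prior count of 2. The fits were also run on counts simulated from the same kind of model, without outlying libraries. That checks the code, not how well the model suits these data. DESeq2 1.42.0, other scalings, no filter, no sex term, no robust estimates, summed copies, a replicate block and leaving out libraries were the alternatives. Python 3.11.15, scipy 1.17.1 and matplotlib 3.10.9 served for correlations and plots.

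The 10 genes and the lists were chosen with earlier results of these data known. All 10 are named. From each list the rule names up to 4 genes with the largest called diet difference averaged over the times and up to 3 with the largest chow amplitude, and also Hsf1, Cirbp, Rbm3 and the 10 genes most like the mean profile. List genes named for a call at a single time were chosen after their values were seen.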

Additional observations from a re-analysis of the deposited data

Results flagged for a closer look

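Among the 80 sets of 4 libraries examined (10 genes in 8 groups), 2 held a library far from the other 3, where chance gives about 1 in 20. Dnajb1 had 36.6 CPM in chow ZT20 replicate 3, with the nearest library at 30.3 CPM. Hspb1 had 44.2 CPM in chow ZT8 replicate 2, with the nearest at 23.9 CPM, and every cdHFD library at ZT8 was still above it.

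The diets differed in the rhythm of 4 genes by edgeR's test of the difference itself, with adjusted p of 0.000762 for Hsp90aa1, 0.00435 for Hsp90ab1, 0.00435 for Hspb1 and 0.0100 for Hsph1. The diet difference changed with the time of collection for 8 genes. The adjusted p was 0.000875 for Hsp90aa1, 0.00249 for Hsp90ab1, 0.00266 for Hsph1, 0.00266 for Hspb1 and 0.00829 for Hspa8. It was 0.0323 for Hspe1, 0.0414 for Dnajb1 and 0.0446 for Hspa1b, the 3 genes that lost this call most often when 1 library was left out.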

How the results depend on the processing

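A gene's result was taken as changed where its call, or the sign of a diet or sex difference, changed. A count was taken as changed only where it moved by more than a set factor, or to or from 0. By this rule, of 135 results, RLE size factors and fits without robust estimates changed none. Scaling by total counts alone left 107 of 137 as they were. It turned the average diet difference of Hspa8 (0.45), Hsp90ab1 (0.50), Hsph1 (0.40), Dnajb1 (0.54), Hspd1 (0.41) and Hspe1 (0.33), and those of Hspd1 at ZT8 (0.44), Hspa8 at ZT14 (0.071) and Dnajb1 (0.16) and Hspd1 (0.030) at ZT20. Heat shock genes called were then 10 higher and 0 lower on average, 6 higher at ZT2, 3 higher at ZT14 and 1 lower at ZT20. With no filter on low counts, 0 were lower on average, 2 higher at ZT2, 1 higher and 1 lower at ZT14, 8 differed in rhythm, 3 were lower in chow females, and 3 had a higher sex-by-diet difference. The rhythm difference of Hspa1b was 1.39 with and without the filter, so its new call came from that fit's estimate of the spread. Over all genes that fit called 2639 for diet by time, 2109 for time in cdHFD, 1108 for cdHFD rhythm, 1809 for a rhythm difference, 491 for sex in cdHFD and 798 for sex by diet. DESeq2 called 2166, 1726, 754, 1325, 302 and 614 in that order, with 1 heat shock gene higher at ZT2 and 1 for sex by diet. With the Hspa1a and Hspa1b counts added, 1 gene was higher on average and 0 at ZT20. Without a sex term 0 were higher at ZT20.

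Replicate numbers were not given as shared animals or batches. Of 112 same-numbered pairs, 85 had r over 0.1 (-0.26 to 0.45), and 14 of 32 libraries correlated best with their own number. No share for pairs with different numbers stands beside these counts, and whether the numbers mark shared batches was not tested. The main fits hold no term for the replicate number. With the replicate number as a block, 0 genes were higher at ZT20 (Hspa1a adjusted p = 0.0606), and Hspa1b lost its diet-by-time (0.0647) and cdHFD rhythm calls (0.0535). The counts of heat shock genes called in those tests fell with the Hspa1b calls, within the set factor. By the rule above no other of the 123 results run with it changed, the sex comparisons not being run so.

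Leaving out cdHFD ZT2 replicates 3 and 4, chosen after seeing the data, gave 1 higher at ZT2, 0 higher at ZT20, 1 for sex by diet and 211 genes for sex by diet over the table, with Dnajb1 at 0.0029 on average. With cdHFD ZT14 replicate 2 out as well, the values were 1 at ZT2, 1 higher at ZT14, 1 for sex by diet, 208 over the table and Dnajb1 at 0.045. Leaving out each library in turn, the Dnajb1 average ran from -0.11 to 0.027 and Hspe1 at ZT8 from -0.10 to 0.12. All genes called ran from 566 to 1228 for time in cdHFD, 688 to 2065 for diet by time, 431 to 1179 for the rhythm difference and 279 to 640 for cdHFD rhythm. Heat shock genes called ran from 5 to 9 for diet by time, 1 to 4 for cdHFD rhythm, 0 to 2 higher at ZT2, 0 to 1 higher and 0 to 4 lower at ZT14, 0 to 1 higher at ZT20, 0 to 1 lower in chow females and 0 to 1 for sex by diet. The cause of these changes was not tested. Within cdHFD alone, r of Hspd1 with Hspe1 was 0.460. Hspa1a rests on the fewest reads, down to 4 in a library, which limits the precision of its folds.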

Other observations

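The HSP70 co-chaperones differed at ZT14, when no heat shock gene was called, though 1 alone of those 10 had a log2 fold change above 0 (median -0.22). Of 15 tested, 10 were lower in cdHFD, where 15.8% of all genes were, and 0 higher, with a median log2 fold change of -0.53. Bag3 averaged 54.3 CPM in cdHFD livers and 93.5 CPM in chow livers (-0.81 ± 0.20, adjusted p = 0.00123 in edgeR's test), although it was higher in cdHFD at ZT8. Dnaja1 averaged 239.5 CPM in cdHFD livers and 404 CPM in chow livers (-0.75 ± 0.22, adjusted p = 0.00621).

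The fitted peaks of the core clock genes were also earlier in cdHFD, for all 12 tested, as for 64% of all genes and 95.7% of those with a rhythm in both diets. Rhythms passed the test for 11 of them in cdHFD and for 12 in chow, and the rhythm differed between the diets for 5, Ciart, Npas2, Nr1d1, Nr1d2 and Per2. Per2, which restrains its own transcription, peaked at ZT10.4 ± 0.528 h in cdHFD and ZT15.5 ± 0.676 h in chow (adjusted p of the difference = 0.00335). Npas2, a partner of Arntl, peaked at ZT21.4 ± 0.458 h in cdHFD and ZT24.0 ± 0.378 h in chow (adjusted p = 0.0300). For Dbp the peaks were ZT7.89 ± 0.694 h in cdHFD and ZT11.1 ± 0.520 h in chow, and the difference did not pass (adjusted p = 0.0693). These values include cdHFD ZT2 replicates 3 and 4, whose levels of Dbp, Arntl, Nr1d1 and Ciart stood apart from those of replicates 1 and 2. The peaks were not fitted without them.

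Of the remaining lists, the summed stellate cell and fibroblast markers were 587 to 1719 CPM in cdHFD livers and 182 to 521 CPM in chow livers, and the cholangiocyte markers 113 to 726 and 48.8 to 209 CPM. Endothelial markers summed to 196 to 354 CPM in cdHFD livers and 154 to 359.8 CPM in chow livers, and immediate early genes to 258 to 564 and 78.9 to 409 CPM. Their part in the heat shock results was not tested.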
